A study of Homo sapiens with 18 samples.

Results

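DLD-1 colorectal cancer cells that overexpressed LIN28B and received 5 µM alpelisib were compared with the same LIN28B cells left untreated. The 2 groups held 3 libraries each, 6 of the 18 in the series. The genes described are all those with a TPM (transcript abundance corrected for length and library total) that reached 1 in 3 or more of these 6 libraries, 15508 of the 61806 listed. DLD-1 is an established line from a human colorectal adenocarcinoma, known to carry an activating mutation in PIK3CA. The series also held untreated DLD-1 cells with an empty vector (EV), and EV, LIN28B and LIN28B-with-alpelisib groups labelled LoVo, again 3 libraries each. Cells were cultured in DMEM with fetal bovine serum, and polyadenylated RNA was sequenced. Both the alpelisib-treated and the untreated cells thus overexpressed LIN28B, but not at the same level: its transcript was lower with alpelisib, as given below. The sources used here do not give the length of treatment, the vehicle, the promoter that drives LIN28B or whether each line is a clone or a pool. The labels do not say whether the replicates were separate cultures. The p-values therefore measure only the spread among these libraries, part or all of which may be technical.

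Phosphatidylinositol 3-kinase (PI3K) turns a membrane lipid into a messenger that recruits and activates the kinase AKT, and alpelisib inhibits the alpha catalytic subunit, the product of PIK3CA. AKT holds FOXO transcription factors in the cytoplasm and feeds the mTOR complex that raises protein synthesis, the hypoxia-inducible factor HIF, the amino acid response factor ATF4 and the sterol-responsive SREBP factors. LIN28B binds RNA, keeps let-7 microRNA precursors from maturing and is expressed in fetal gut and in some colorectal cancers.

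Alpelisib-treated cells had lower transcripts of stress and nutrient supply genes and higher transcripts of a secreted lectin, a cytokine and immediate-early factors. DDIT4, an inhibitor of mTOR that hypoxia and stress induce, had the largest fall of all genes called. The gene (ENSG00000168209, GRCh38 chromosome 10, 72273920 to 72276036, plus strand) measured 82.0, 109 and 97.3 TPM with alpelisib, against 1298, 959.6 and 1235 TPM in untreated cells. Every treated library lay far below every untreated library, a ratio of means of 12.1 (log2 change -3.58, SE 0.17, limma adjusted p = 1.15e-09). REG4, a secreted lectin of the gut epithelium, was the largest rise among called genes with a symbol that no library listed at 0. REG4 (ENSG00000134193, GRCh38 chromosome 1, 119794018 to 119811660, minus strand) measured 40.2, 36.2 and 35.5 TPM with alpelisib, against 2.95, 2.35 and 4.11 TPM in untreated cells. The groups did not overlap and the mean was 11.9 times higher with alpelisib (log2 change 3.23, SE 0.17, limma adjusted p = 2.82e-09).

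Differences were tested with limma on log2(TPM + 1) over all 18 libraries, and a gene was called at a Benjamini-Hochberg adjusted p under 0.05. Of 15508 genes, 5845 were called (37.7%). Of these, 1652 were higher with alpelisib (10.7% of those tested) and 4193 lower (27%). The calls were mostly of modest size: the median called change was 0.59 for rises and 0.60 for falls on the log2 scale, and 267 rises and 399 falls reached 2-fold, 1.72% and 2.57% of genes. The 2 groups did not overlap for 2580 genes that were higher (16.6%) and 5679 that were lower (36.6%). The median of all genes was -0.14, and TPM fixes the total of a library. With libraries scaled by the median of ratios, which moved that median to -0.0069, 2610 genes were higher and 2971 lower. List medians below can be read against -0.14. The lists hold mostly protein-coding genes, whose median was -0.19, with 10.0% higher and 32.5% lower, and medians went lower with transcript length, as given below. Where the balance of calls or the sign of a list median turns under median-of-ratios scaling, both are given.

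**Figure D1:**
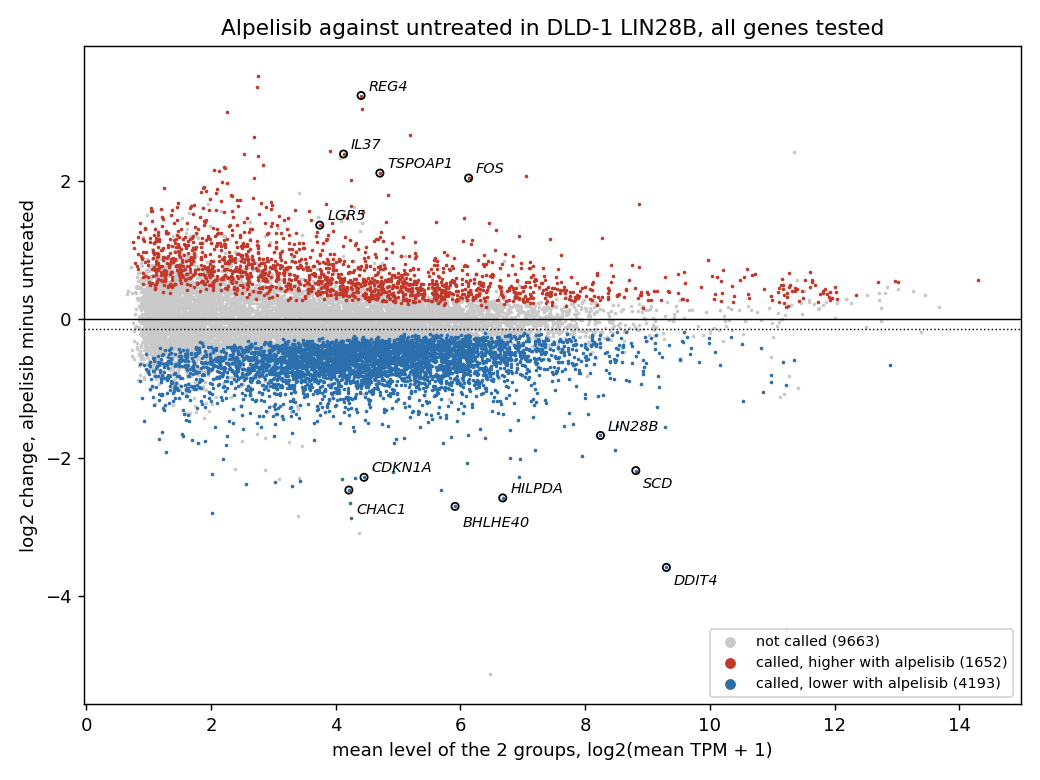
Each point is 1 of the 15508 genes, with the mean level of the 2 groups on the x axis as log2(mean TPM + 1) and the log2 change, alpelisib minus untreated, on the y axis. Red marks the 1652 genes called higher, blue the 4193 called lower, grey the rest, and the dotted line the median of all genes at -0.14. DDIT4, HILPDA and REG4 lie far outside the main cloud.

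The libraries of a group resembled each other more than those of the other group. Pearson's r of log2(TPM + 1) across genes, which are not independent, was 0.9764 to 0.9811 within alpelisib-treated cells, 0.9787 to 0.9831 within untreated cells and 0.9477 to 0.9656 between them. Depth is unknown, since TPM keeps no record of it. Alpelisib-treated libraries listed 23638 to 23891 genes above 0, against 23114 to 23488 in untreated ones. The mitochondrial genome accounted for 15.8%, 14.8% and 10.6% of all TPM in alpelisib replicates 1 to 3, and 10.3% to 11.1% in untreated cells. The part of that share in the results was not tested, but leaving those genes out and rescaling gave 1954 rises and 3944 falls.

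HIF target genes outside glycolysis fell as a group: 25 of the 28 tested were lower and 1 was higher, with a median log2 change of -1.04, beside 27% lower and 10.7% higher of all genes. HIF drives genes for oxygen supply, pH control and lipid storage. HILPDA, a lipid droplet protein that blocks fat breakdown, measured 23.2, 32.9 and 29.7 TPM with alpelisib, against 175, 161 and 187 TPM in untreated cells. Its treated libraries all lay below its untreated ones (log2 change -2.58, SE 0.12, limma adjusted p = 1.15e-09). BHLHE40, a transcriptional repressor that also acts in the clock, measured 14.6, 17.4 and 13.4 TPM with alpelisib, against 106, 101 and 103 TPM in untreated cells. Its groups were likewise apart (log2 change -2.70, SE 0.13, limma adjusted p = 1.26e-09). ANGPTL4, a secreted inhibitor of lipoprotein lipase, measured 11.7, 17.0 and 16.3 TPM with alpelisib, against 81.7, 84.4 and 91.5 TPM in untreated cells (log2 change -2.46, SE 0.14, limma adjusted p = 1.17e-08). ANKRD37, an ankyrin repeat protein, measured 24.1, 26.5 and 25.5 TPM with alpelisib, against 97.4, 102 and 133 TPM in untreated cells (log2 change -2.07, SE 0.12, limma adjusted p = 8.73e-09). The spread within each group was small beside these gaps.

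Smaller falls covered other roles in the hypoxia programme. VEGFA, the main angiogenic ligand, averaged 101 ± 9.22 TPM with alpelisib and 226 ± 26.0 TPM untreated (log2 change -1.16, SE 0.12, limma adjusted p = 3.32e-06), where ± here and below is the SD over n = 3 libraries each. PFKFB4, a regulator of glycolytic flux, averaged 35.2 ± 4.69 TPM with alpelisib and 87.7 ± 4.33 TPM untreated (log2 change -1.30, SE 0.11, limma adjusted p = 7.46e-07). CA9, a carbonic anhydrase at the cell surface, averaged 1.69 ± 0.371 TPM with alpelisib and 6.58 ± 0.675 TPM untreated (log2 change -1.50, SE 0.27, limma adjusted p = 0.000599). NDRG1, a stress-induced growth suppressor, changed by -1.37 (adjusted p = 0.000271). The exception in direction was another surface carbonic anhydrase, CA12, which measured 6.95, 6.17 and 6.93 TPM with alpelisib, against 2.13, 2.41 and 1.47 TPM in untreated cells and rose (log2 change 1.37, SE 0.15, limma adjusted p = 1.04e-05). The host transcript of microRNA 210, MIR210HG, at -0.069, and BNIP3, a mitophagy receptor, did not pass, and BNIP3 averaged 3.62 ± 0.661 TPM with alpelisib and 2.91 ± 0.508 TPM untreated with overlapping groups (log2 change 0.24, SE 0.18, limma adjusted p = 0.318).

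The core of the hypoxia response element, ACGTG on either strand, was looked for in the 250 bases before the RefSeq start of each gene in GRCh38.p14, and 10722 tested genes had such a window. It lay in 14 of the 23 HIF targets with a window (60.9%), in 23.6% of genes tested and in 18.7% of all promoters. DDIT4 and ANKRD37 are shown as members with large falls whose window holds the core. The DDIT4 stretch ends before the annotated gene, and the ANKRD37 stretch lies within the annotated gene and is kept to 30 bases. The DDIT4 stretch is chr10:72273674-72273919, plus strand, and the ANKRD37 stretch is chr4:185396676-185396705, plus strand. Capitals mark the core, which in ANKRD37 occurs on both strands of the palindrome CACGTG and again downstream.
DDIT4: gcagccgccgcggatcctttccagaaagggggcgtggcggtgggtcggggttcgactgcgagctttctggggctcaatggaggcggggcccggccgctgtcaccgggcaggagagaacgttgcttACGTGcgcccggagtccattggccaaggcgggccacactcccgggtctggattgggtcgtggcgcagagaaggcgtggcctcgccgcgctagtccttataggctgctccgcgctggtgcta
ANKRD37: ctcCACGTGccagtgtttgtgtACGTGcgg
A match describes the letters and says nothing of binding.

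**Figure D2:**
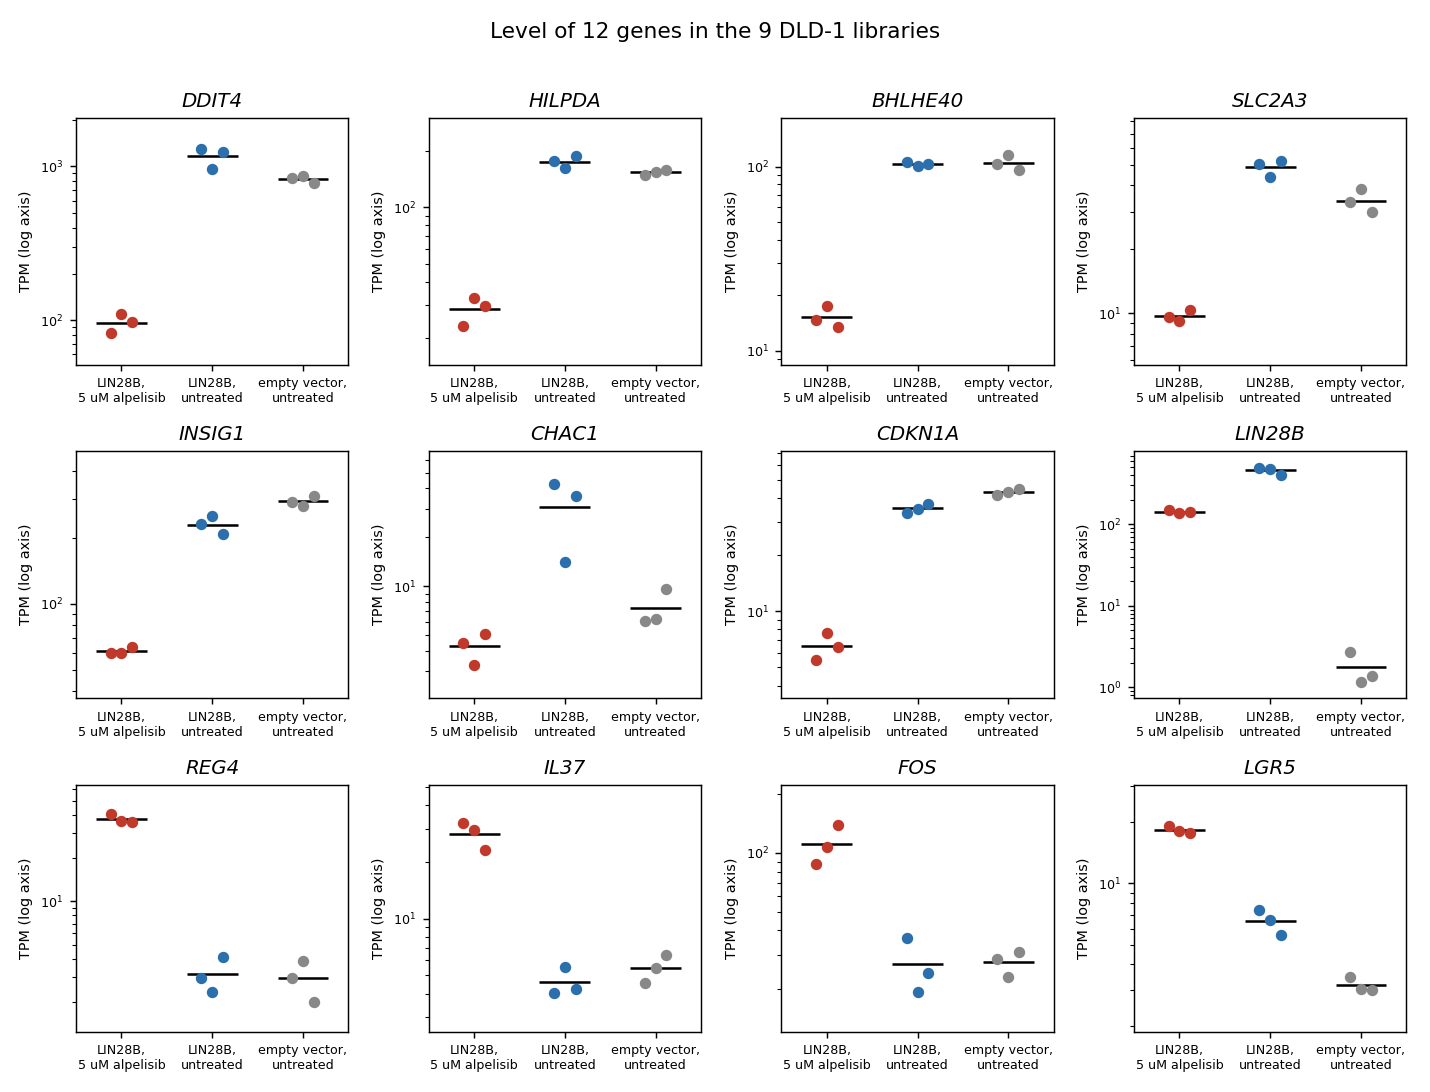
TPM of 12 genes, on log axes, in the 9 DLD-1 libraries. Each point is 1 library and the line is the mean of 3, for LIN28B cells with alpelisib (red), untreated LIN28B cells (blue) and untreated EV cells (grey). The 8 genes in the upper rows are lower and the 4 in the bottom row are higher in every alpelisib library than in every untreated LIN28B library.

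Glycolytic genes fell together. Of 23 transporters and enzymes tested, 21 were lower and 0 higher, with a median of -0.81. The glucose transporter SLC2A3 measured 9.61, 9.16 and 10.3 TPM with alpelisib, against 50.2, 43.5 and 51.9 TPM in untreated cells, and its groups did not overlap (log2 change -2.21, SE 0.15, limma adjusted p = 5.28e-08). SLC2A1, the transporter with the higher level here, measured 255, 328 and 369 TPM with alpelisib, against 909, 961 and 896 TPM in untreated cells. Its treated libraries too were below all untreated ones (log2 change -1.55, SE 0.23, limma adjusted p = 0.000121). Hexokinase HK2 averaged 38.7 ± 4.98 TPM with alpelisib and 92.7 ± 2.81 TPM untreated (log2 change -1.24, SE 0.12, limma adjusted p = 2.41e-06). The enzymes ALDOC (-1.55), PGK1 (-1.26), ENO2 (-1.22), LDHA (-1.05) and GAPDH (-0.66) fell too, with adjusted p of 6.58e-06 for GAPDH, which averaged 5912 ± 108 TPM with alpelisib and 9321 ± 174 TPM untreated. SLC16A1, a lactate carrier, averaged 135 ± 21.7 TPM with alpelisib and 157 ± 9.36 TPM untreated and did not pass (log2 change -0.23, SE 0.17, limma adjusted p = 0.298).

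In the pentose phosphate pathway and nucleotide synthesis, 13 of 22 genes were lower and 1 was higher, with a median of -0.50. PAICS (-0.86), GMPS (-0.73), ATIC (-0.49) and PRPS2 (-0.73) of purine synthesis fell, as did the transketolase TKT, which averaged 137 ± 10.3 TPM with alpelisib and 230.5 ± 7.47 TPM untreated (log2 change -0.75, SE 0.12, limma adjusted p = 0.000195). The single rise was PGLS, the lactonase of the oxidative branch, at 105, 109 and 107 TPM with alpelisib, against 68.9, 67.2 and 71.2 TPM in untreated cells (log2 change 0.62, SE 0.076, limma adjusted p = 2.31e-05). Its treated libraries lay above all untreated ones.

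Genes of the amino acid response driven by ATF4 fell in 27 of 32 cases and rose in 1, with a median of -0.91. CHAC1, a glutathione-degrading enzyme, measured 4.49, 3.28 and 5.1 TPM with alpelisib, against 42.3, 14.1 and 36 TPM in untreated LIN28B cells and 6.15, 6.33 and 9.59 TPM in EV cells. The treated libraries were below all untreated ones, and untreated replicate 2 was the lowest of its group (log2 change -2.46, SE 0.32, limma adjusted p = 4.95e-05). ATF3, a stress-induced transcription factor, measured 3.42, 3.71 and 6.95 TPM with alpelisib, against 40.6, 16.8 and 26.0 TPM in untreated LIN28B cells and 8.88, 5.47 and 11.3 TPM in EV cells (log2 change -2.30, SE 0.29, limma adjusted p = 2.8e-05). ASNS, asparagine synthetase, measured 20.8, 20.2 and 25.4 TPM with alpelisib, against 82.5, 55.5 and 105 TPM in untreated LIN28B cells and 26.3, 23.6 and 36.3 TPM in EV cells (log2 change -1.79, SE 0.19, limma adjusted p = 5.25e-06). In CHAC1, ATF3 and ASNS alike the untreated LIN28B libraries were all above the EV libraries. The 2 comparisons share the untreated libraries, so the values are only set side by side. LIN28B transcript was itself lower with alpelisib, and its part in these changes was not tested. DDIT3, a stress-induced transcription factor, changed by -1.71, GARS1 and YARS1, tRNA synthetases, by -1.58 and -1.13, and SLC1A4 and SLC7A5, amino acid transporters, by -1.55 and -0.92. CEBPB (-1.14) and the transaminase GPT2 (-1.29) fell with them, at adjusted p of 5.77e-07 and 4.69e-06.

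ATF4 itself was less affected than its targets. It averaged 486 ± 25.1 TPM with alpelisib and 619 ± 75.7 TPM untreated (log2 change -0.34, SE 0.081, limma adjusted p = 0.00394), and under median-of-ratios scaling that fall was -0.19 with an adjusted p of 0.0781. ATF5, a related factor, was the member that rose, at 11.6, 12.6 and 11.6 TPM with alpelisib, against 6.81, 7.94 and 4.56 TPM in untreated cells (log2 change 0.82, SE 0.22, limma adjusted p = 0.00942), a call lost without untreated replicate 3 (adjusted p = 0.0533). The amino acid response element, searched as TGATGNAA on both strands, lay in 4 of 29 windows of the list (13.8%), in 1.33% of genes tested and in 3.18% of all promoters. CHAC1 and ASNS, the steepest fall of the list and its best-known member, are shown as 30 bases around the match in capitals. They lie at chr15:40953250-40953279, plus strand, and at chr7:97872459-97872488, minus strand. In CHAC1 the match is on the opposite strand.
CHAC1: cctcccctgccgTTGCATCActcctgccag
ASNS: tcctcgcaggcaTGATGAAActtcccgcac

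Enzymes that make serine and carry folate one-carbon units fell in 13 of 19 genes and rose in 1, with a median of -0.53. MTHFD2, the mitochondrial folate enzyme, measured 45.5, 46.3 and 50.7 TPM with alpelisib, against 219, 153 and 224 TPM in untreated LIN28B cells and 121, 119 and 89.6 TPM in EV cells (log2 change -2.02, SE 0.19, limma adjusted p = 1.3e-06). PSAT1 and PHGDH of serine synthesis averaged 37.5 ± 2.08 TPM with alpelisib and 128 ± 27.7 TPM untreated, and 85.9 ± 3.34 TPM with alpelisib and 203 ± 15.3 TPM untreated. Both fell (-1.72, adjusted p = 1.36e-07, and -1.23, adjusted p = 3.01e-05). SHMT2, MTHFD1L and the proline enzyme PYCR1 changed by -1.18, -1.17 and -1.04. MTHFD2L, a paralogue of MTHFD2, rose by a small margin (log2 change 0.28, SE 0.10, limma adjusted p = 0.0443), a call lost without untreated replicate 1, untreated replicate 2, untreated replicate 3, alpelisib replicate 1, alpelisib replicate 2 or alpelisib replicate 3 (adjusted p = 0.0552 to 0.173).

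NRF2 target and glutathione genes were lower in 13 and higher in 2 of 22, with a median of -0.33. SLC7A11, the cystine importer that is also an ATF4 target, measured 0.783, 0.821 and 1.01 TPM with alpelisib, against 9.88, 6.43 and 10.5 TPM in untreated cells. No treated library came near an untreated one (log2 change -2.38, SE 0.17, limma adjusted p = 9.7e-08). SLC7A11 passed the filter on TPM largely through the untreated group, which favours such a call. TXNRD1 (-1.37), NQO1 (-1.21), GSR (-1.0004), GCLC (-0.89) and HMOX1 (-0.73), enzymes of thiol and quinone reduction, glutathione synthesis and haem breakdown, fell with it. AKR1C3 (0.50) and the exporter ABCC3 (0.61) rose, at adjusted p of 0.0213 and 0.00186. The call of AKR1C3 was lost without untreated replicate 1 or alpelisib replicate 3 (adjusted p = 0.0921 to 0.12).

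Among unfolded protein response and folding genes of the endoplasmic reticulum, 20 of 23 were lower and 0 higher, with a median of -0.69. HYOU1, a chaperone, averaged 28.7 ± 3.52 TPM with alpelisib and 77.9 ± 1.18 TPM untreated (log2 change -1.42, SE 0.19, limma adjusted p = 6.41e-05). HSPA5, the main luminal chaperone, averaged 198 ± 16.3 TPM with alpelisib and 340.1 ± 13.6 TPM untreated (log2 change -0.78, SE 0.14, limma adjusted p = 0.000558). HSP90B1 (-0.69), PDIA4 (-0.81), EDEM1 (-0.95) and CREB3L2 (-0.92) fell as well. EIF2AK3, the kinase PERK that signals to ATF4, averaged 9.15 ± 2.09 TPM with alpelisib and 10.5 ± 1.21 TPM untreated with overlapping groups (log2 change -0.20, SE 0.15, limma adjusted p = 0.309).

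Cholesterol synthesis and its regulators fell in 23 of 28 genes and rose in 0, with a median of -0.83. INSIG1, the sterol sensor partner and a sensitive SREBP target, measured 59.9, 59.5 and 63.2 TPM with alpelisib, against 231, 250.3 and 207 TPM in untreated cells. The groups were clearly apart (log2 change -1.89, SE 0.15, limma adjusted p = 1.97e-07). HMGCS1, the synthase that starts the pathway, measured 128, 156 and 169 TPM with alpelisib, against 579, 578 and 515 TPM in untreated cells, again without overlap (log2 change -1.88, SE 0.17, limma adjusted p = 1.04e-06). The carrier STARD4 (-1.67), MSMO1 (-1.54) and FDPS (-0.93) fell with them.

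The CCAAT box, bound by the NF-Y complex that works beside SREBP and in mitotic promoters, was searched as CCAAT on both strands. It lay in 16 of 20 windows of the cholesterol list (80.0%) and in 24 of 30 of the mitosis list (80.0%), against 35.2% of genes tested and 33.0% of all promoters. The sterol regulatory element core, searched as TCACNCCAC, lay in 1 of those 20 windows (5.0%) and in 0.858% of genes tested. The window of HMGCS1 is shown as the steepest fall of a synthesis enzyme in the list, cut where annotated transcripts begin, at chr5:43313513-43313662, minus strand. Capitals mark the match, read on the opposite strand, and another lies just past the stretch shown, at -100.
HMGCS1: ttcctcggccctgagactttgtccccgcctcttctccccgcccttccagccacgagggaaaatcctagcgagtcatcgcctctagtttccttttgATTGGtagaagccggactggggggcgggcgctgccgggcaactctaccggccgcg

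Fatty acid synthesis and desaturation fell in 14 of 23 genes and rose in 1, with a median of -0.53. SCD, the desaturase that makes oleate, measured 142, 171 and 171 TPM with alpelisib, against 768, 749 and 689 TPM in untreated cells. Every treated library was below every untreated one (log2 change -2.18, SE 0.16, limma adjusted p = 1.47e-07). ACSS2, which makes acetyl-CoA from acetate, averaged 77.4 ± 6.65 TPM with alpelisib and 207 ± 14.6 TPM untreated (log2 change -1.41, SE 0.085, limma adjusted p = 1.35e-08). SREBF1, which encodes an SREBP factor, averaged 121 ± 10.8 TPM with alpelisib and 245 ± 24.9 TPM untreated (log2 change -1.02, SE 0.13, limma adjusted p = 2.62e-05), and FASN, the fatty acid synthase, averaged 122 ± 10.5 TPM with alpelisib and 201 ± 17.1 TPM untreated (log2 change -0.72, SE 0.10, limma adjusted p = 0.000107). LPIN1 (-1.03), ACSL1 (-0.92) and ME1 (-0.86) also fell. AGPAT2, an acyltransferase of phospholipid and fat synthesis, rose slightly (log2 change 0.29, SE 0.076, limma adjusted p = 0.00695).

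Lipid droplet and fatty acid oxidation genes divided, with 2 higher and 11 lower of 19 and a median of -0.33. PNPLA2, the lipase that opens the droplet, rose and measured 179, 168 and 174 TPM with alpelisib, against 124, 115 and 109 TPM in untreated cells (log2 change 0.58, SE 0.092, limma adjusted p = 0.000227). Its groups did not overlap. The lipase PNPLA3, the lipase co-activator ABHD5 and the oxidation enzyme CPT2 changed by -1.44, -0.65 and -0.72. PLIN2, the main droplet coat protein, averaged 2.39 ± 0.227 TPM with alpelisib and 1.23 ± 0.164 TPM untreated and did not pass (log2 change 0.60, SE 0.27, limma adjusted p = 0.0847), while median-of-ratios scaling called it higher (adjusted p = 0.0474).

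Lysosome and autophagy genes held 12 falls (38.7%) and 2 rises (6.45%) among 31, with a median of -0.25. The shares were 27% and 10.7% of all genes, and 32.5% and 10.0% of protein-coding genes. The proton pump subunit ATP6V1A (-0.75), the autophagy kinase ULK1 (-0.53) and the cholesterol exporter NPC1 (-0.51) fell. ATP6V0E1 (0.65) and CTSA (0.38) rose, at adjusted p of 2.35e-05 and 0.000593.

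Of 14 circadian clock genes tested, 12 were lower and 0 higher, with a median of -0.82. The clock pairs activators, CLOCK and BMAL1, with repressors and output factors that they induce. PER1, a repressor, measured 12.2, 12.1 and 14 TPM with alpelisib, against 43.5, 49.8 and 46.3 TPM in untreated cells (log2 change -1.79, SE 0.11, limma adjusted p = 1.35e-08). NR1D1, a nuclear receptor that represses BMAL1, measured 11.4, 11.8 and 9.92 TPM with alpelisib, against 36.1, 29.3 and 33.7 TPM in untreated cells (log2 change -1.50, SE 0.093, limma adjusted p = 1.85e-08). Every treated library was below every untreated one for both. The output factors DBP (-1.47), TEF (-0.76) and NFIL3 (-1.30), the repressor BHLHE41 (-0.81) and the activators BMAL1 (-1.08) and CLOCK (-0.78) fell together. NPAS2, which can replace CLOCK, averaged 7.30 ± 0.526 TPM with alpelisib and 7.47 ± 2.30 TPM untreated and did not pass (adjusted p = 0.997). The E-box CACGTG, the site of CLOCK and BMAL1, lay in 3 of 14 promoter windows of the list (21.4%) and in 8.84% of genes tested; it contains the core ACGTG.

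**Figure D3:**
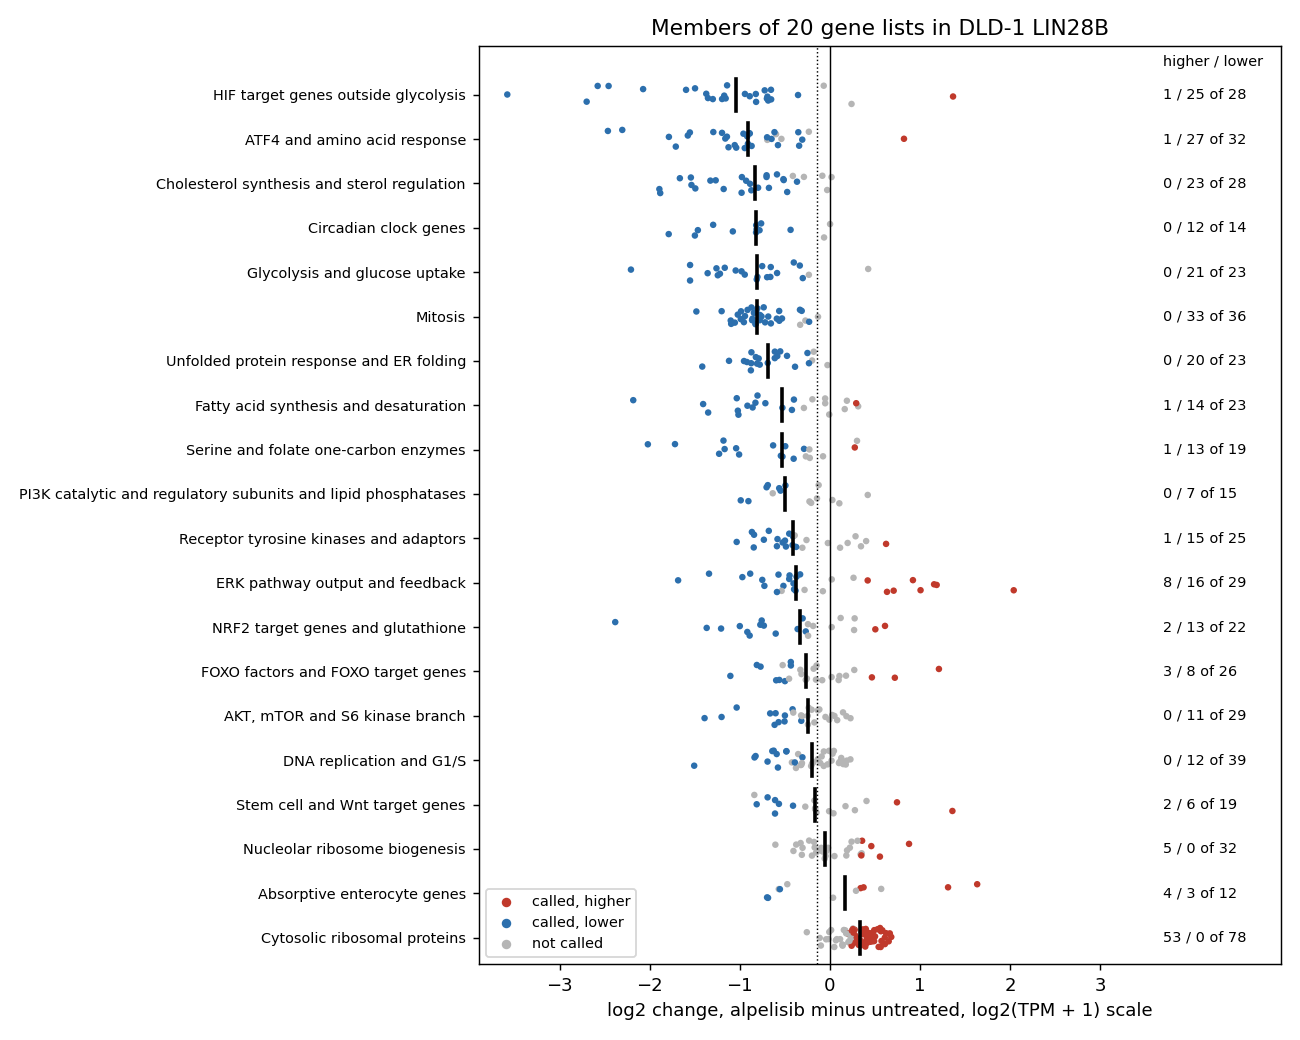
Log2 change, alpelisib minus untreated, of the tested members of 20 gene lists, 1 point per gene, with red for called higher, blue for called lower and grey for not called. The thick bar is the list median, the dotted line the median of all genes at -0.14, and the counts at the right are higher and lower of all tested. HIF target genes lie furthest left and cytosolic ribosomal proteins lie to the right of 0.

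Mitotic genes fell in 33 of 36 cases and rose in 0, with a median of -0.81. BUB1, a spindle checkpoint kinase, measured 20.7, 22.3 and 24.7 TPM with alpelisib, against 72.2, 59.7 and 62.8 TPM in untreated cells, without overlap (log2 change -1.48, SE 0.16, limma adjusted p = 5.72e-06). AURKA, the centrosome kinase, averaged 37.9 ± 2.57 TPM with alpelisib and 88.8 ± 9.12 TPM untreated (log2 change -1.20, SE 0.13, limma adjusted p = 1.14e-05), and the proliferation marker MKI67 averaged 26.1 ± 1.62 TPM with alpelisib and 56.9 ± 3.98 TPM untreated (log2 change -1.10, SE 0.13, limma adjusted p = 2.12e-05). CDC20 (-0.86), ANLN (-0.86), CCNB1 (-0.83), PLK1 (-0.74), CDK1 (-0.56) and CDC25B (-0.78) fell as well. The members that did not pass were CENPE, KIF23 and CENPF, at -0.33, -0.27 and -0.13. In bulk RNA, fewer cells of a kind and less RNA per cell cannot be told apart.

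DNA replication and G1/S genes held 12 lower (30.8%) and 0 higher of 39, with a median of -0.20. Median-of-ratios scaling gave 4 higher and 7 lower. Lower calls made up 27% of all genes and 32.5% of protein-coding genes. RRM2 and RRM1 encode the subunits of ribonucleotide reductase, which makes DNA precursors. RRM2 measured 101, 109 and 138 TPM with alpelisib, against 339, 348 and 302 TPM in untreated cells (log2 change -1.51, SE 0.23, limma adjusted p = 0.000151), and RRM1 averaged 74.5 ± 12.8 TPM with alpelisib and 132 ± 13.6 TPM untreated (log2 change -0.83, SE 0.22, limma adjusted p = 0.00841). ORC1 (-0.84), CDK2 (-0.69), GINS1 (-0.62) and ORC6 (-0.39) fell. The helicase subunit MCM2 and the sliding clamp PCNA did not pass, and their groups overlapped (-0.35, adjusted p = 0.302, and 0.14, adjusted p = 0.253). PCNA was called higher under median-of-ratios scaling (0.29, adjusted p = 0.00517).

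CDK inhibitors and p53 target genes were lower in 12 and higher in 1 of 25, with a median of -0.49. CDKN1A, the inhibitor p21, measured 5.48, 7.62 and 6.46 TPM with alpelisib, against 33.3, 35.2 and 37.4 TPM in untreated cells. All treated libraries were far below the untreated ones (log2 change -2.28, SE 0.13, limma adjusted p = 8.73e-09). CDKN1C (-1.14), CDKN2D (-1.07), the death receptor TNFRSF10B (-0.88) and RRM2B (-0.75) fell, while TP53I3, a p53-induced quinone oxidoreductase, rose to 71.4, 67.8 and 70.5 TPM with alpelisib, against 35.6, 33.4 and 36.3 TPM in untreated cells (log2 change 0.97, SE 0.074, limma adjusted p = 1.74e-07).

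Among the BCL2 family and apoptosis regulators 7 of 18 were lower (38.9%) and 1 was higher, with a median of -0.21. Lower calls made up 27% of all genes and 32.5% of protein-coding genes. BIRC3, an NF-kB-induced inhibitor of apoptosis, measured 3.84, 3.85 and 6.86 TPM with alpelisib, against 18.2, 14.9 and 21.6 TPM in untreated cells (log2 change -1.74, SE 0.20, limma adjusted p = 1.37e-05). Its relatives BIRC2 (-0.46) and XIAP (-0.53), MCL1 (-0.50), BCL2L2 (-0.53) and CFLAR (-0.47), which also oppose cell death, fell. The rise was BMF, a pro-apoptotic BH3 protein (log2 change 0.27, SE 0.083, limma adjusted p = 0.0167), whose call was lost without untreated replicate 3 or alpelisib replicate 3 (adjusted p = 0.0679 to 0.076).

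The target of alpelisib and its partners changed unequally. PIK3CA, which encodes the inhibited subunit, measured 9.92, 9.75 and 11.9 TPM with alpelisib, against 12.6, 10.5 and 12 TPM in untreated cells. The groups overlapped and the change did not pass (log2 change -0.14, SE 0.15, limma adjusted p = 0.462). PIK3CB, the beta catalytic subunit, measured 10.5, 11 and 9.80 TPM with alpelisib, against 22.4, 19.5 and 19.5 TPM in untreated cells and fell (log2 change -0.90, SE 0.15, limma adjusted p = 0.00028). PIK3R1, the main regulatory subunit, measured 8.34, 10.1 and 10.6 TPM with alpelisib, against 21.0, 20.03 and 19.4 TPM in untreated cells and fell (log2 change -0.99, SE 0.16, limma adjusted p = 0.000257). PIK3CD, at -0.21, did not pass. In the whole list of subunits and lipid phosphatases 7 of 15 were lower (46.7%) and 0 higher, with a median of -0.49. PIK3C2A (-0.69) and PIK3C2B (-0.56) were among the falls. Lower calls made up 27% of all genes, and 41.3% of protein-coding genes of 8192 to 46064 exonic bases. The list median length of 9204 bases lies in that class.

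Of the AKT, mTOR and S6 kinase branch 11 of 29 genes were lower (37.9%) and 0 higher, with a median of -0.25. Median-of-ratios scaling gave 3 higher and 6 lower. Lower calls made up 27% of all genes and 32.5% of protein-coding genes. They made up 37.5% of protein-coding genes of 5870 to 8191 exonic bases, where the list median length of 7257 lies. AKT1 averaged 80.5 ± 12 TPM with alpelisib and 99.9 ± 1.70 TPM untreated (log2 change -0.32, SE 0.10, limma adjusted p = 0.0198), a call lost without untreated replicate 2, alpelisib replicate 1 or alpelisib replicate 2 (adjusted p = 0.054 to 0.105) and under median-of-ratios scaling (adjusted p = 0.127). AKT2 averaged 85.2 ± 2.14 TPM with alpelisib and 82.3 ± 1.59 TPM untreated (log2 change 0.050, SE 0.084, limma adjusted p = 0.67) and MTOR 24.5 ± 1.56 TPM with alpelisib and 23.1 ± 2.31 TPM untreated (log2 change 0.081, SE 0.11, limma adjusted p = 0.589), and neither passed. SESN2 and TRIB3, stress-induced brakes on mTOR and AKT, changed by -1.39 and -1.20, GSK3B, a kinase that AKT inhibits, by -1.04, and EIF4EBP1, the translation repressor downstream of mTOR, by -0.61. All 4 were called, at adjusted p of 7.57e-05, 6.69e-07, 0.00025 and 0.000156.

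Receptor tyrosine kinases and adaptors were lower in 15 and higher in 1 of 25, with a median of -0.41. The rise was IRS2, an insulin receptor substrate and FOXO target, at 4.83, 3.79 and 3.98 TPM with alpelisib, against 2.35, 2.32 and 2.43 TPM in untreated cells (log2 change 0.62, SE 0.15, limma adjusted p = 0.00373). IRS1 averaged 23.7 ± 3.33 TPM with alpelisib and 33.5 ± 2.5 TPM untreated (log2 change -0.49, SE 0.17, limma adjusted p = 0.0292), a call lost without untreated replicate 1, untreated replicate 3 or alpelisib replicate 1 (adjusted p = 0.066 to 0.13) and under median-of-ratios scaling (adjusted p = 0.069). EGFR averaged 15.1 ± 1.62 TPM with alpelisib and 20.4 ± 1.08 TPM untreated (log2 change -0.41, SE 0.15, limma adjusted p = 0.0451), a call lost without untreated replicate 1, untreated replicate 2, untreated replicate 3, alpelisib replicate 1 or alpelisib replicate 2 (adjusted p = 0.0718 to 0.167) and under median-of-ratios scaling (adjusted p = 0.104). INSR averaged 7.34 ± 2.58 TPM with alpelisib and 5.14 ± 0.358 TPM untreated, ERBB3 91.9 ± 5.18 TPM with alpelisib and 80.2 ± 8.04 TPM untreated and IGF1R 7.61 ± 0.403 TPM with alpelisib and 5.78 ± 0.117 TPM untreated. None of these 3 passed (adjusted p = 0.0954, 0.102 and 0.0824), although median-of-ratios scaling called them higher (adjusted p = 0.0355, 0.00407 and 0.0099). ERBB2 had overlapping groups, at 114 ± 14.6 TPM with alpelisib and 115 ± 10.4 TPM untreated (adjusted p = 0.922). The adaptors GRB10 (-1.04) and SHC1 (-0.87) and the receptors FGFR4 (-0.85) and MERTK (-0.84) fell.

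FOXO factors and their targets held 3 rises (11.5%) and 8 falls (30.8%) among 26, with a median of -0.26. Those shares are near the 10.7% and 27% of all genes. The rises were YPEL3, a growth suppressor, at 182, 166 and 160.0 TPM with alpelisib, against 65.6, 78.0 and 74.8 TPM in untreated cells (log2 change 1.21, SE 0.12, limma adjusted p = 3.65e-06), KLF6 (0.72) and the autophagy factor ATG14 (0.47). TXNIP, a brake on glucose uptake, averaged 186 ± 24.2 TPM with alpelisib and 402 ± 66.1 TPM untreated and fell (log2 change -1.11, SE 0.16, limma adjusted p = 0.000102), as did GADD45A (-0.81). FOXO3 itself was lower (log2 change -0.56, SE 0.11, limma adjusted p = 0.000927), and FOXO1, at 2.78 ± 0.107 TPM with alpelisib and 3.75 ± 0.333 TPM untreated, did not pass (adjusted p = 0.0768).

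ERK pathway output and feedback genes went both ways, 8 higher and 16 lower of 29, with a median of -0.38. Among the rises were immediate-early transcription factors. FOS measured 87.4, 108 and 139 TPM with alpelisib, against 36.8, 19.4 and 24.2 TPM in untreated cells, without overlap (log2 change 2.04, SE 0.19, limma adjusted p = 1.42e-06). EGR1 measured 116, 115 and 140.1 TPM with alpelisib, against 72.1, 54.2 and 57.7 TPM in untreated cells (log2 change 1.01, SE 0.11, limma adjusted p = 1.06e-05), and JUN measured 41.1, 53.5 and 56.4 TPM with alpelisib, against 30.4, 23.7 and 24.0 TPM in untreated cells (log2 change 0.92, SE 0.13, limma adjusted p = 0.000105). JUNB (0.42), IER2 (0.63) and the feedback inhibitors SPRY4 (1.18) and SPRED3 (1.16) rose as well. On the other side were DUSP5, an ERK phosphatase, at 14.6 ± 2.01 TPM with alpelisib and 38.3 ± 2.46 TPM untreated (log2 change -1.34, SE 0.11, limma adjusted p = 5.77e-07), the transcription factor ETV5 (-1.69), PHLDA1 (-0.97) and the EGFR ligand EREG (-0.89). CCND1, cyclin D, averaged 117 ± 6.63 TPM with alpelisib and 160.5 ± 12.6 TPM untreated (log2 change -0.45, SE 0.13, limma adjusted p = 0.0119). DUSP6, another ERK phosphatase, averaged 116 ± 7.83 TPM with alpelisib and 96.8 ± 14.1 TPM untreated and did not pass (log2 change 0.26, SE 0.11, limma adjusted p = 0.06), though median-of-ratios scaling called it higher (adjusted p = 0.00473). ERRFI1, an inhibitor of EGFR outside the list, fell to 85.9, 105 and 108 TPM with alpelisib, against 422, 327 and 434 TPM in untreated cells (log2 change -1.97, SE 0.17, limma adjusted p = 5.84e-07).

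The CArG box, the site of serum response factor, lay in the window of EGR1 and in no other of the 20 windows of the ERK list (5.0%), and in 0.933% of genes tested and 1.15% of all promoters. The AP-1 site TGANTCA lay in 1 of the 20 (5.0%, against 3.87% of genes tested), and the forkhead site GTAAACA lay in 1 (5.0%, against 2.02%). EGR1 is shown because it holds a pair of them, in capitals, at chr5:138465229-138465478, plus strand.
EGR1: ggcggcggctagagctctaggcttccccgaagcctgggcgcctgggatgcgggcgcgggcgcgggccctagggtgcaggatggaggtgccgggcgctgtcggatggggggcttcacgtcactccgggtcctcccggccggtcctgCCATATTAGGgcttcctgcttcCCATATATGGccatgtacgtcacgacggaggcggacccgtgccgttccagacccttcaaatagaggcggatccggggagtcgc

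Other large rises were of proteins with unlike roles. IL37, an anti-inflammatory cytokine of the interleukin-1 family, measured 32.2, 29.6 and 23.2 TPM with alpelisib, against 4.01, 5.56 and 4.23 TPM in untreated cells, with no overlap (log2 change 2.39, SE 0.16, limma adjusted p = 5.28e-08). ALPP, an alkaline phosphatase, measured 29.4, 25.5 and 27.9 TPM with alpelisib, against 9.32, 8.79 and 6.72 TPM in untreated cells (log2 change 1.63, SE 0.24, limma adjusted p = 0.000121). NXPE1, a gut epithelial protein of the neurexophilin family, measured 5.94, 7.15 and 6.63 TPM with alpelisib, against 1.39, 0.845 and 0.645 TPM in untreated cells (log2 change 1.97, SE 0.19, limma adjusted p = 2.07e-06). In each the lowest treated library was above the highest untreated library. AVIL, an actin-binding protein related to villin, measured 29, 32.9 and 26.2 TPM with alpelisib, against 6.98, 7.13 and 5.41 TPM in untreated cells (log2 change 2.02, SE 0.18, limma adjusted p = 1.05e-06). TSPOAP1, a scaffold protein, measured 46.5, 41.6 and 36.5 TPM with alpelisib, against 8.52, 8.83 and 9.05 TPM in untreated cells (log2 change 2.11, SE 0.17, limma adjusted p = 4.07e-07). EDN1, the peptide endothelin, measured 4.87, 6.32 and 5.63 TPM with alpelisib, against 1.34, 0.442 and 0.911 TPM in untreated cells (log2 change 1.82, SE 0.22, limma adjusted p = 1.92e-05). UPK2, a uroplakin, and MYL11, a myosin light chain, averaged under 1 TPM in untreated cells and 4.64 ± 1.51 TPM and 4.99 ± 3.76 TPM with alpelisib (1.83, adjusted p = 5.86e-05, and 1.91, adjusted p = 0.00442). UPK2, MYL11, NXPE1 and EDN1 passed the filter on TPM largely through the alpelisib group, which favours such a call.

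Among the largest changes were transcripts whose reads are hard to assign. IER3-AS1, antisense to IER3, measured 52.2, 44.9 and 14.9 TPM with alpelisib, against 3.75, 4.55 and 1.68 TPM in untreated cells (log2 change 3.03, SE 0.83, limma adjusted p = 0.00952), and alpelisib replicate 3 was well below the other two. TUBA1B-AS1 measured 37.4, 32.1 and 6.08 TPM with alpelisib, against 2.42, 4.38 and 2.15 TPM in untreated cells, with the same replicate low, and its call was lost without untreated replicate 1, untreated replicate 3, alpelisib replicate 1 or alpelisib replicate 2 (adjusted p = 0.0736 to 0.113). EXOSC10-AS1 (1.89) was antisense as well, and the use of strand in counting was not given in the sources used here. MICOS10-NBL1, a readthrough of neighbouring genes, changed by 2.15, a call lost without untreated replicate 1, untreated replicate 2 or alpelisib replicate 1 (adjusted p = 0.053 to 0.0619). FAM223B, a long non-coding RNA of a duplicated region, changed by 2.15, a call lost without untreated replicate 1, untreated replicate 2, alpelisib replicate 1 or alpelisib replicate 2 (adjusted p = 0.0597 to 0.097). Both MICOS10-NBL1 and FAM223B passed the filter on TPM largely through the alpelisib group, which favours such a call. The pseudogene RPL9P28 (1.88), HNRNPA1L2 (2.19), a copy of HNRNPA1, CDRT4 (2.23) and the long non-coding RNA APPAT (2.39) rose.

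Short or repeated transcripts were listed at 0 throughout a group. They passed the filter on TPM only through the other group, so no fold is given and their calls are no independent support. MT-TN, a mitochondrial tRNA, was listed at 0 in all 3 untreated libraries and measured 21.5, 8.45 and 3.98 TPM with alpelisib, a call lost without untreated replicate 1, untreated replicate 2, untreated replicate 3, alpelisib replicate 1 or alpelisib replicate 2 (adjusted p = 0.0572 to 0.108). RN7SL368P, a copy of the signal recognition particle RNA, was listed at 0 in untreated cells and measured 2.17, 3.30 and 2.76 TPM with alpelisib. SNORD15B, a small nucleolar RNA, and RPL37P12, a ribosomal pseudogene, were listed at 0 in all alpelisib libraries. In untreated cells SNORD15B measured 7.39, 3.81 and 7.18 TPM, and RPL37P12 measured 4.01, 1.66 and 2.97 TPM.

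Several further large falls lay outside the pathways above. LGALS1, the lectin galectin-1, measured 45.1, 37.2 and 41.1 TPM with alpelisib, against 193, 199 and 219 TPM in untreated cells, with no overlap (log2 change -2.28, SE 0.14, limma adjusted p = 1.34e-08). TFRC, the transferrin receptor, measured 39.8, 42.0 and 47.5 TPM with alpelisib, against 192, 184 and 153 TPM in untreated cells (log2 change -2.004, SE 0.25, limma adjusted p = 3.46e-05). PRSS2, a trypsinogen, measured 1.80, 2.68 and 3.13 TPM with alpelisib, against 14.7, 22.2 and 14 TPM in untreated cells (log2 change -2.34, SE 0.37, limma adjusted p = 0.000218), and its reads may be shared with near-identical trypsinogen genes. TNFRSF9, a costimulatory receptor, measured 0.0962, 0.830 and 0.359 TPM with alpelisib, against 7.08, 5.19 and 4.72 TPM in untreated LIN28B cells and 2.57, 1.58 and 0.609 TPM in EV cells (log2 change -2.24, SE 0.26, limma adjusted p = 1.75e-05). TNFRSF9 passed the filter on TPM only through the untreated group. KALRN, a guanine nucleotide exchange factor, measured 0.776, 1.19 and 1.33 TPM with alpelisib, against 5.66, 6.43 and 6.88 TPM in untreated LIN28B cells and 2.71, 3.01 and 2.36 TPM in EV cells (log2 change -1.81, SE 0.26, limma adjusted p = 0.000108). It passed the filter largely through the untreated group.

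Intestinal differentiation genes did not move in 1 direction. Many of their markers were too low to test: 17 of 30 absorptive and 13 of 29 goblet and secretory genes were under 1 TPM in all 6 libraries. Of 12 absorptive enterocyte genes tested 4 were higher and 3 lower, with a median of 0.16. CEACAM6 (1.31) rose. ALPP, the alkaline phosphatase described above, rose too, but whether that rise marks absorptive differentiation was not tested. KRT20 was called higher by 0.34, a call lost without untreated replicate 1, untreated replicate 2, untreated replicate 3, alpelisib replicate 1, alpelisib replicate 2 or alpelisib replicate 3 (adjusted p = 0.0536 to 0.146), and CDH17, the intestinal cadherin, by 0.37, a call lost without untreated replicate 3, alpelisib replicate 2 or alpelisib replicate 3 (adjusted p = 0.0549 to 0.0679). VIL1, the villin of the brush border, averaged 17.6 ± 2.13 TPM with alpelisib and 29.8 ± 7.70 TPM untreated and fell (log2 change -0.70, SE 0.18, limma adjusted p = 0.00581). DPP4 fell by 0.69, a call lost without alpelisib replicate 1 (adjusted p = 0.0601), and CEACAM1 by 0.56, a call lost without alpelisib replicate 1 or alpelisib replicate 2 (adjusted p = 0.0808 to 0.0846). Among 13 goblet and secretory genes, REG4 was the 1 rise and AGR2 the 1 fall, at 389 ± 52.7 TPM with alpelisib and 582 ± 21.8 TPM untreated (log2 change -0.59, SE 0.16, limma adjusted p = 0.00961). The mucin MUC5AC averaged 8.68 ± 0.468 TPM with alpelisib and 11.4 ± 1.31 TPM untreated, TFF2 4.93 ± 2.32 TPM with alpelisib and 3.23 ± 2.09 TPM untreated and SPDEF, the goblet cell factor, 1.27 ± 0.420 TPM with alpelisib and 0.839 ± 0.508 TPM untreated, and none of them passed (adjusted p = 0.0634, 0.287 and 0.277).

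In the stem cell and Wnt list 2 of 19 genes rose (10.5%) and 6 fell (31.6%), with a median of -0.17. The shares were 10.7% and 27% of all genes, and 10.0% and 32.5% of protein-coding genes. LGR5, the R-spondin receptor that marks crypt base stem cells, measured 19.0, 18.1 and 17.7 TPM with alpelisib, against 7.39, 6.64 and 5.6 TPM in untreated LIN28B cells and 3.46, 3.03 and 2.99 TPM in EV cells. All treated libraries were above all others (log2 change 1.36, SE 0.11, limma adjusted p = 5.3e-07). ASCL2, a stem cell transcription factor, averaged 173 ± 16.2 TPM with alpelisib and 103 ± 15.8 TPM untreated (log2 change 0.74, SE 0.11, limma adjusted p = 0.000149). The Wnt feedback genes NOTUM (-0.81), ZNRF3 (-0.69) and RNF43 (-0.61) fell, and TNFRSF19 changed by -0.57, a call lost without alpelisib replicate 1 (adjusted p = 0.0585). Intestinal transcription factors held 2 rises (12.5%) and 6 falls (37.5%) among 16, with a median of -0.20. Median-of-ratios scaling gave 6 higher and 4 lower and a median of -0.058. ELF3 measured 1312, 1368 and 1196 TPM with alpelisib, against 734, 705 and 705 TPM in untreated cells (log2 change 0.85, SE 0.093, limma adjusted p = 8.33e-06), and CDX2, the master factor of the intestine, averaged 353 ± 42.8 TPM with alpelisib and 227 ± 27.5 TPM untreated (log2 change 0.64, SE 0.13, limma adjusted p = 0.00172). FOXA2 (-0.73), VDR (-0.54) and MAF (-0.49) fell.

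Adhesion, junction and keratin genes held 5 rises (17.2%) and 11 falls (37.9%) among 29, with a median of -0.27. The shares were 10.7% and 27% of all genes, and 10.0% and 32.5% of protein-coding genes. Keratins KRT8 and KRT18, which pair in simple epithelia, rose by 0.38 and 0.44, while KRT19 averaged 1828 ± 105 TPM with alpelisib and 2799.6 ± 118 TPM untreated and fell (log2 change -0.62, SE 0.083, limma adjusted p = 6.54e-05). The laminin receptor ITGA6 (-1.03), CLDN12 (-0.69) and F11R (-0.39) were lower. Mesenchymal and invasion genes held 5 rises (27.8%) and 7 falls (38.9%) among 18. The list median of -0.002 was 0.12 under median-of-ratios scaling, with 6 higher and 6 lower. The matricellular proteins CCN1 and CCN2, outputs of YAP and serum response factor, averaged 51.5 ± 4.43 TPM with alpelisib and 23.4 ± 4.04 TPM untreated, and 7.26 ± 1.31 TPM with alpelisib and 3.07 ± 0.334 TPM untreated. Both rose (1.12 and 1.01), as did TAGLN (0.89), LGALS3 (0.61) and S100A6 (0.64). TNC (-1.10), PLAU (-0.85) and ANXA1 (-0.78) fell beside LGALS1.

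Of 22 TGF-beta pathway genes 5 were higher (22.7%) and 6 lower (27.3%), beside 10.7% and 27% of all genes. The list median was -0.17, while median-of-ratios scaling gave 6 higher and 5 lower and a median of -0.029. The rises were ID1, ID2 and ID3, targets of BMP signalling, with SMAD7 (0.45) and the ligand BMP4 (0.29). ID3 averaged 544 ± 55.2 TPM with alpelisib and 315 ± 38.0 TPM untreated (log2 change 0.79, SE 0.095, limma adjusted p = 2.09e-05), ID1 874 ± 44.0 TPM with alpelisib and 556 ± 53.9 TPM untreated (log2 change 0.65, SE 0.076, limma adjusted p = 1.59e-05) and ID2 462 ± 9.19 TPM with alpelisib and 342 ± 37.2 TPM untreated (log2 change 0.44, SE 0.081, limma adjusted p = 0.000744). BMP2 (-0.54) and TGFBR3 (-0.79) fell.

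Interferon response and antigen presentation genes held 4 rises and 9 falls among 31, with a median of -0.13 that was 0.021 under median-of-ratios scaling. IFITM1 (0.79), IFITM2 (0.40), IRF9 (0.44) and PSMB8 (0.45) rose, and IFIT1 (-0.90), OAS3 (-0.73) and OAS1 (-0.57) fell. Epithelial chemokines and NF-kB targets held 4 rises (17.4%) and 9 falls (39.1%) among 23, with a median of -0.26. Among protein-coding genes the shares were 10.0% and 32.5%. CXCL8, which attracts neutrophils, averaged 4.63 ± 1.02 TPM with alpelisib and 13.2 ± 3.55 TPM untreated (log2 change -1.32, SE 0.20, limma adjusted p = 0.000157), and LCN2, an iron-scavenging lipocalin, averaged 164 ± 13.5 TPM with alpelisib and 347 ± 29.8 TPM untreated (log2 change -1.08, SE 0.10, limma adjusted p = 9.6e-07). CXCL5 (-0.62), TNFAIP3 (-0.79) and ICAM1 (-0.66) fell with them, and CXCL3 (0.50), IL18 (0.35) and NFKBIA (0.31) rose beside IL37. The call of CXCL3 was lost without untreated replicate 2, untreated replicate 3, alpelisib replicate 1, alpelisib replicate 2 or alpelisib replicate 3 (adjusted p = 0.0641 to 0.141), and that of IL18 without untreated replicate 2 (adjusted p = 0.0514).

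Cytosolic ribosomal proteins were the list with the most rises. Of 78 tested 53 were higher and 0 lower, with a median of 0.34. RPS6 measured 3763, 3921 and 3784 TPM with alpelisib, against 2379, 2423 and 2352 TPM in untreated cells, without overlap (log2 change 0.68, SE 0.088, limma adjusted p = 4.01e-05). RPL37A averaged 3025 ± 90.9 TPM with alpelisib and 1908 ± 54.2 TPM untreated (log2 change 0.66, SE 0.065, limma adjusted p = 2.89e-06), and RPS14, RPL13, RPS18 and RPL27A changed by 0.62, 0.56, 0.56 and 0.54. Ribosomal protein genes have many processed pseudogenes, with which reads may be shared. Translation factors held 2 rises (6.25%) and 9 falls (28.1%) among 32, beside 10.7% and 27% of all genes, with a median of -0.14. Median-of-ratios scaling gave 8 higher and 4 lower and a median of 0.008. TPT1 (0.46) and PABPC1 (0.24), like ribosomal proteins encoded by transcripts that mTOR controls at translation, rose, and the call of PABPC1 was lost without untreated replicate 1, untreated replicate 2, untreated replicate 3, alpelisib replicate 1, alpelisib replicate 2 or alpelisib replicate 3 (adjusted p = 0.0522 to 0.142). EIF4E, the cap-binding protein, averaged 43.5 ± 5.32 TPM with alpelisib and 82.6 ± 4.91 TPM untreated and fell (log2 change -0.92, SE 0.19, limma adjusted p = 0.00137). EIF4A1 (-0.55) and EIF2S3 (-0.62) fell too, and EIF2S1 changed by -0.77, a call lost without alpelisib replicate 1 (adjusted p = 0.0657).

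Nucleolar ribosome biogenesis genes held 5 rises (15.6%) and 0 falls among 32, beside 10.7% and 27% of all genes. Median-of-ratios scaling gave 10 higher and 0 lower, and the list median of -0.054 became 0.094. RRS1 measured 19.4, 19.6 and 18.5 TPM with alpelisib, against 9.86, 10.9 and 9.25 TPM in untreated cells (log2 change 0.88, SE 0.11, limma adjusted p = 2.09e-05). NOP16 (0.55) and NOP56 (0.46) rose, as did BOP1 (0.36), a call lost without untreated replicate 2, untreated replicate 3, alpelisib replicate 1 or alpelisib replicate 3 (adjusted p = 0.0589 to 0.0931), and NIP7 (0.35), a call lost without untreated replicate 3 or alpelisib replicate 3 (adjusted p = 0.0593 to 0.0863). MYC, which drives these genes, averaged 73.3 ± 11.6 TPM with alpelisib and 56.9 ± 2.83 TPM untreated and did not pass (log2 change 0.35, SE 0.18, limma adjusted p = 0.137), although it was called higher under median-of-ratios scaling (adjusted p = 0.0199).

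Mitochondrially encoded proteins rose in 3 and fell in 0 of 13 genes, with a median of 0.40. MT-CO1, a cytochrome oxidase subunit, measured 28404, 26067 and 18119 TPM with alpelisib, against 15509.7, 15937 and 16740.2 TPM in untreated cells (log2 change 0.57, SE 0.19, limma adjusted p = 0.0273), and alpelisib replicate 3 was the lowest of the treated libraries. Its call was lost without untreated replicate 1, untreated replicate 2, alpelisib replicate 1 or alpelisib replicate 2 (adjusted p = 0.0624 to 0.126). MT-ND1 (0.54) lost its call without untreated replicate 1, untreated replicate 2, untreated replicate 3, alpelisib replicate 1 or alpelisib replicate 2 (adjusted p = 0.0764 to 0.183), and MT-ND3 (0.54) lost its call without untreated replicate 1, untreated replicate 2, untreated replicate 3, alpelisib replicate 1 or alpelisib replicate 2 (adjusted p = 0.0872 to 0.166). Nuclear respiratory chain subunits went the other way in 14 of 32, with 3 higher and a median of -0.27. NDUFS1 (-1.06), ATP5F1B (-0.90), UQCRC2 (-0.75) and SDHA (-0.63) fell, and the small subunits NDUFA2 (0.46), NDUFA1 (0.28) and COX5B (0.28) rose.

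LIN28B itself was lower with alpelisib. The gene (ENSG00000187772, GRCh38 chromosome 6, 104936616 to 105083332, plus strand) measured 149.7, 139 and 141 TPM with alpelisib, against 493, 483 and 408 TPM in untreated LIN28B cells and 2.74, 1.17 and 1.38 TPM in EV cells. The treated libraries lay below all untreated LIN28B libraries and far above all EV libraries (log2 change -1.68, SE 0.15, limma adjusted p = 1.04e-06). Reads from the introduced and the endogenous gene cannot be told apart. In the list of let-7 targets and LIN28 genes 11 of 23, LIN28B included, were lower (47.8%) and 1 was higher, with a median of -0.34. Lower calls made up 27% of all genes and 32.5% of protein-coding genes. PBK, a mitotic kinase, changed by -0.87 and IGF2BP2, an mRNA-binding protein, by -0.45. HRAS rose, at 69.9 ± 5.61 TPM with alpelisib and 49.3 ± 4.03 TPM untreated (log2 change 0.49, SE 0.088, limma adjusted p = 0.000542). PLAGL1 fell (log2 change -0.36, SE 0.091, limma adjusted p = 0.00579), and median-of-ratios scaling gave -0.22 with an adjusted p of 0.1 for it.

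Epithelial markers were abundant. KRT8 was at 4058 ± 156 TPM with alpelisib and 3123 ± 192 TPM untreated. Of 11 colorectal epithelium genes tested 6 were higher (54.5%) and 2 lower (18.2%), beside 10.7% and 27% of all genes. Among the rises, KRT20, LGALS4 and CDH17 lost their calls in 6, 4 and 3 of the 6 fits without 1 library. The limma adjusted p reached 0.146, 0.112 and 0.0679 in those fits. Of 17 markers of stromal, endothelial and immune cells, 14 were under 1 TPM in all 6 libraries and 7 were at 0 in all 6, and their summed level was 4.38 to 6.27 TPM with alpelisib and 5.73 to 9.0 TPM untreated. The 3 tested were PDGFRB (-0.73) and CD68 (-0.69), both lower, and COL1A1 (0.47), which did not pass. The call of CD68 was lost without untreated replicate 1, untreated replicate 3, alpelisib replicate 1 or alpelisib replicate 3 (adjusted p = 0.0536 to 0.153).

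The direction of change varied with transcript length and class. Among 12272 protein-coding genes 10.0% were higher and 32.5% lower, with a median of -0.19. Among 2012 long non-coding RNAs 14.3% were higher and 6.56% lower, with a median of 0.14. Pseudogenes, 694 in number, had 12.1% higher and 4.61% lower. Protein-coding genes were also split into 5 equal classes by summed exon length in GENCODE 29. In the shortest class, of 207 to 2854 bases, 16.8% were higher and 19.4% lower. In the longest, of 8192 to 46064 bases, 5.67% were higher and 41.3% lower, and the classes had medians of -0.018, -0.16, -0.22, -0.26 and -0.29 from short to long.

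The gap between the shortest and the longest class, as the median log2 difference from the untreated mean, was 0.33, 0.22 and 0.28 in the alpelisib libraries. It was -0.025, 0.032 and 0 in the untreated libraries and 0.010, -0.071 and 0.063 in EV libraries. All treated libraries were thus above all others. The untreated values lie around 0 by construction, because their own mean is the reference, while the EV libraries are outside it. Taking from each gene the median of its own length class left the list medians at -0.86 for HIF targets, -0.72 for the ATF4 response, -0.69 for glycolysis, -0.65 for mitosis, -0.60 for the clock and for cholesterol synthesis, and 0.42 for ribosomal proteins, of which 3 of 78 lay below their class. Other lists lay nearer their class. DNA replication was at 0.033, FOXO at 0.003, lysosome and autophagy at 0.0 and the AKT and mTOR branch at -0.027. The let-7 list was at -0.098, receptor kinases at -0.159, PI3K subunits and lipid phosphatases at -0.201 and fatty acid synthesis at -0.235. The part of transcript length in the results was not tested further.

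**Figure D4:**
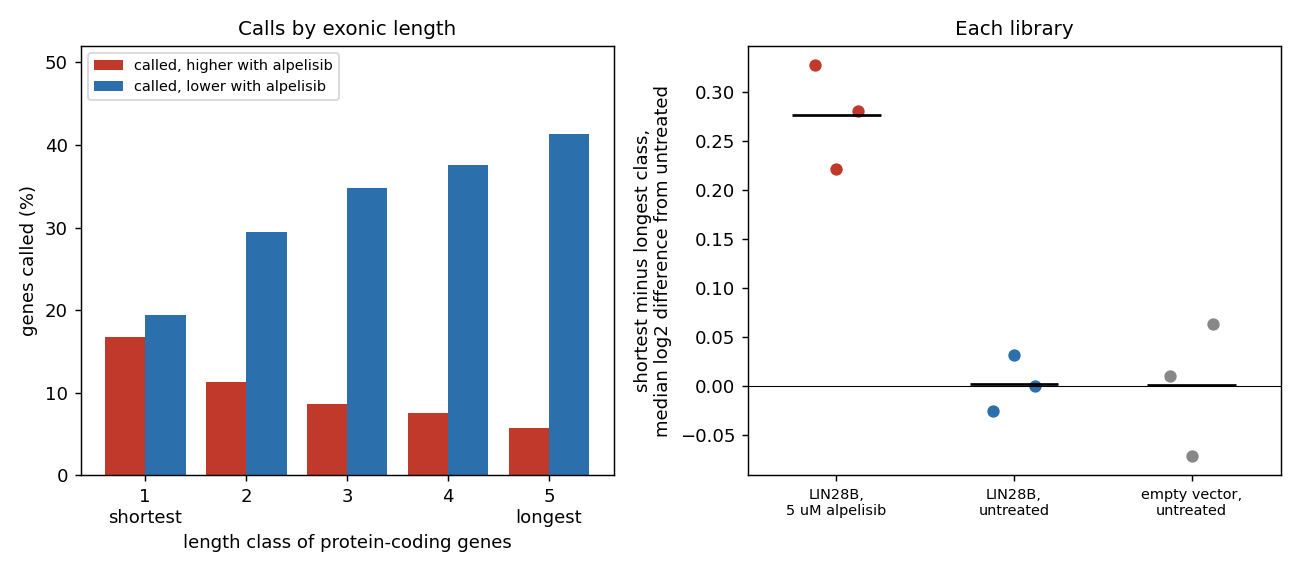
Left, share of protein-coding genes called higher (red) and lower (blue) with alpelisib in each class of summed exon length, in percent. Right, the median log2 difference from the untreated mean of the shortest class minus that of the longest, 1 point per library with the group mean as a line. The share called lower runs from 19.4% to 41.3% with length. The alpelisib libraries lie at 0.22 to 0.33 while the others lie near 0, the untreated LIN28B ones by construction.

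The change was set beside that of the LIN28B libraries labelled LoVo, which also received alpelisib and share no library with DLD-1. The line of those libraries is in doubt: across genes, the untreated ones correlated with untreated DLD-1 LIN28B at r of 0.9623 to 0.9683 and with LoVo EV at 0.8908 to 0.9219. On the same 15508 genes the LoVo-labelled comparison called 2465 higher (15.9%) and 4553 lower (29.4%). Of the DLD-1 rises 1219 were called higher there too, 73.8% of the DLD-1 list and 49.5% of the other. Of the DLD-1 falls 3199 were called lower there, 76.3% of the DLD-1 list and 70.3% of the other. Opposite calls were rare, 3 and 18 genes. DDIT4 changed by -2.83, HILPDA by -3.08 and IL37 by 2.40 in the LoVo-labelled cells. The lists moved alike there for HIF targets (2 higher and 25 lower of 28), cholesterol synthesis (0 higher and 23 lower of 28) and ribosomal proteins (60 higher and 0 lower of 78). The balance of calls differed for others. Nucleolar genes had 5 higher and 0 lower of 32 in DLD-1, and 3 higher and 13 lower with a median of -0.28 in the LoVo-labelled cells. Adhesion genes had 5 higher and 11 lower of 29 in DLD-1, and 9 higher and 7 lower in the LoVo-labelled cells. There, mesenchymal genes had 7 higher and 6 lower, TGF-beta genes 6 higher and 4 lower, intestinal transcription factors 6 higher and 7 lower and stem cell and Wnt genes 5 higher and 5 lower. These differences between counts were not tested.

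The difference between the effects, tested in the same limma model, was called for 153 genes (0.987%), 43 with the DLD-1 change above the LoVo-labelled one (0.277%) and 110 below it (0.709%). The count was 93 without DLD-1 alpelisib replicate 1, 94 without DLD-1 untreated replicate 1, 101 without DLD-1 untreated replicate 3 and 100 without LoVo-labelled untreated replicate 1. REG4 rose more in DLD-1 (difference 1.96, SE 0.24, limma adjusted p = 0.000747). In the LoVo-labelled cells it measured 117, 136 and 142 TPM with alpelisib and 50.6, 55.9 and 54.6 TPM untreated, a change of 1.27. RAMP1, a receptor activity modifying protein, measured 9.25, 10.6 and 10.5 TPM with alpelisib, against 3.57, 3.83 and 2.80 TPM in untreated cells, and 1.12, 0.836 and 0.207 TPM with alpelisib and 0.643, 1.17 and 1.94 TPM untreated in the LoVo-labelled cells (difference 1.73, SE 0.35, limma adjusted p = 0.0217). It rose in DLD-1 (1.34, adjusted p = 0.000648), and the LoVo-labelled change of -0.39 did not pass. The call of the difference was lost without LoVo-labelled untreated replicate 3, DLD-1 untreated replicate 3 or DLD-1 alpelisib replicate 2 (adjusted p = 0.056 to 0.0641). ANKRD37 (difference 1.00, SE 0.17, limma adjusted p = 0.00719) fell less in DLD-1. LIF, a cytokine of the interleukin-6 family, measured 15.7, 14.4 and 14.6 TPM with alpelisib, against 23.6, 18.5 and 18.2 TPM in untreated cells, and 4.46, 4.38 and 4.80 TPM with alpelisib and 13.1, 15.8 and 19.2 TPM untreated in the LoVo-labelled cells (difference 1.21, SE 0.18, limma adjusted p = 0.0039). The small DLD-1 fall of LIF was itself lost without untreated replicate 1, alpelisib replicate 2 or alpelisib replicate 3 (adjusted p = 0.0556 to 0.124) and under median-of-ratios scaling (adjusted p = 0.131).

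GDF15, a stress-induced hormone, averaged 384 ± 8.32 TPM with alpelisib and 434 ± 27.4 TPM untreated in DLD-1 and did not pass (adjusted p = 0.147), against a LoVo-labelled change of -1.16 (difference 0.98, SE 0.13, limma adjusted p = 0.00148). ZDHHC12-DT, a divergent non-coding transcript, rose by 1.10 in DLD-1 and changed by 0.051 in LoVo-labelled cells (difference 1.05, SE 0.22, limma adjusted p = 0.0249), a call lost without LoVo-labelled untreated replicate 2, LoVo-labelled untreated replicate 3, LoVo-labelled alpelisib replicate 1, LoVo-labelled alpelisib replicate 2, DLD-1 untreated replicate 2, DLD-1 alpelisib replicate 1, DLD-1 alpelisib replicate 2 or DLD-1 alpelisib replicate 3 (adjusted p = 0.0513 to 0.0782). On the other side, CHAC1 fell in DLD-1 while the LoVo-labelled libraries measured 7.84, 8.42 and 8.38 TPM with alpelisib and 11.9, 9.22 and 13.3 TPM untreated (difference -2.04, SE 0.46, limma adjusted p = 0.0423). That call was lost without any single library of the 12 but DLD-1 untreated replicate 2 (adjusted p = 0.0559 to 0.114). SLC26A2, a sulfate transporter, measured 3.52, 3.45 and 3.45 TPM with alpelisib, against 4.22, 4.18 and 3.77 TPM in untreated cells, and 39.3, 39.1 and 32.0 TPM with alpelisib and 9.32, 10.4 and 10.0 TPM untreated in the LoVo-labelled cells (difference -1.96, SE 0.19, limma adjusted p = 6.52e-05). DIO3, the deiodinase that inactivates thyroid hormone, and its neighbour DIO3OS rose by 0.86 and 1.55 in DLD-1, and by 2.81 and 3.23 in the LoVo-labelled cells (differences -1.95 and -1.68). C1QTNF9B rose by 0.89 in DLD-1 and 2.57 in LoVo-labelled cells, and KALRN changed by -1.81 in DLD-1 and 0.041 in LoVo-labelled cells (difference -1.85, SE 0.37, limma adjusted p = 0.0205), a call lost without LoVo-labelled untreated replicate 3, LoVo-labelled alpelisib replicate 1, DLD-1 untreated replicate 3 or DLD-1 alpelisib replicate 1 (adjusted p = 0.054 to 0.0619).

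Among list members, DNA replication genes were 0 higher and 32 lower of 39 in the LoVo-labelled cells, with a median of -0.67, against 0 and 12 with a median of -0.20 in DLD-1. PCNA was the member of that list whose difference was called (difference 0.72, SE 0.13, limma adjusted p = 0.0117). CDKN1A fell more in DLD-1, by 2.28 against 1.28 (difference -0.999, SE 0.19, limma adjusted p = 0.0131). BHLHE40 did too (difference -0.83, SE 0.19, limma adjusted p = 0.0423), a call lost without any single library of the 12 but DLD-1 alpelisib replicate 2 and LoVo-labelled alpelisib replicate 3 (adjusted p = 0.0551 to 0.106). NR1D1 fell less in DLD-1 (difference 0.82, SE 0.13, limma adjusted p = 0.00577). SPRY4 and KRT18 rose less in DLD-1, by 1.18 and 0.44, against 1.94 and 1.11 in the LoVo-labelled cells.

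**Figure D5:**
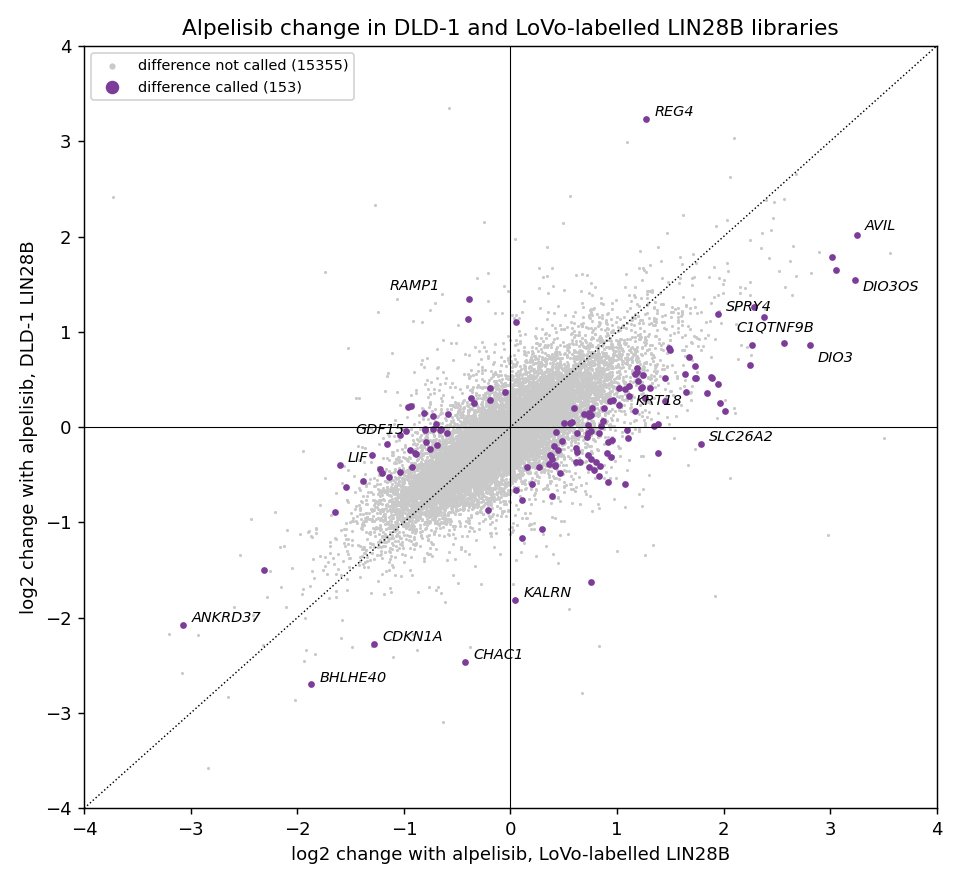
Log2 change with alpelisib of each of the 15508 genes, in LoVo-labelled LIN28B libraries on the x axis and in DLD-1 LIN28B libraries on the y axis, with the line of equal change dotted. Purple marks the 153 genes whose difference was called. Most genes lie along the diagonal, REG4 stands above it and CHAC1, SLC26A2 and DIO3 below it.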

How the data were processed

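RNA from 18 libraries in 6 groups of 3 was compared as gene-level TPM, with 1 column per library in the table the authors deposited. STAR 2.7.10, Picard, HTSeq, DESeq2 and the build hg38 are named, with no role for each, in the submitters' processing notes. Libraries were made with an oligo-dT enrichment and the NEBNext Ultra II kit per the labels' protocols, and strand use is not given in the sources used here. Because TPM keeps no sequencing depth, no counting error can be given, and a count model was not used.

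Genes with TPM of 1 or more in 3 or more of the 6 libraries were kept. A gene near 0 in 1 group can pass through the other alone, which favours a call for it. Values were taken as log2(TPM + 1), where the pseudocount of 1 shrinks the change of low genes, and fitted with limma 3.58.1 in R 4.3.3 over all 18 libraries in 1 model of 6 groups, with a mean-variance trend and Benjamini-Hochberg adjustment at 0.05. The contrast was alpelisib minus untreated. A second contrast took the LoVo-labelled effect from the DLD-1 effect. The fit was tested on simulated data. Other steps used Python 3.11.15, pandas 2.3.3, numpy 2.4.6 and matplotlib 3.10.9. Symbols matched 61757 of 61806 identifiers, and no pair of libraries held identical values.

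The fit has no replicate block, because no label says that a replicate number marks a shared culture or day. Same-numbered alpelisib and untreated libraries had correlations of their deviations from the group means of 0.165, 0.004 and 0.019. Differently numbered ones had -0.123 to 0.118. With so few pairs this check cannot exclude pairing, and the block was run as an alternative. The gene lists, their members and the comparison were chosen with earlier results of these data known. Genes were named as the 20 largest rises and 20 largest falls among called genes without overlap between groups and with a mean of 2 TPM or more in 1 group, the 6 largest of the difference each way, a fixed set of pathway genes, and up to 6 members of each list by smallest p. Further members, such as CA12, ATF5, VEGFA, FASN, ATF4, MYC, FOXO1, BMAL1, CCN2 and PLIN2 and those that did not pass, were named after their values were seen. A few genes of the rule are left out of the text. Promoter windows are the 250 bases before the RefSeq start in GRCh38.p14, stretches overlapping a GENCODE 29 exon were cut to at most 30 bases, and 8 motifs were searched.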

Additional observations from a re-analysis of the deposited data

Results flagged for a closer look

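The alpelisib effect on named genes in DLD-1 cells was set against that in the LoVo-labelled cells by a test of the difference in limma, and the genes below passed at an adjusted p under 0.05. Values are DLD-1 minus LoVo-labelled changes on the log2 scale. The DLD-1 change was the lower of the pair for CHAC1 (-2.04), SLC26A2 (-1.96), DIO3 (-1.95), KALRN (-1.85), C1QTNF9B (-1.68), DIO3OS (-1.68), AVIL (-1.24), CDKN1A (-0.999), BHLHE40 (-0.83), SPRY4 (-0.76), KRT18 (-0.68) and BMF (-0.66). It was the higher for NDUFA1 (0.47), PCNA (0.72), NR1D1 (0.82), CXCL5 (0.92), GDF15 (0.98), ANKRD37 (1.00), ZDHHC12-DT (1.05), LIF (1.21), RAMP1 (1.73) and REG4 (1.96).

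The line of the LoVo-labelled LIN28B libraries is in doubt, so the difference is between labelled groups. Of these genes REG4, SLC26A2, DIO3, DIO3OS, ANKRD37, GDF15, LIF and KRT18 were called under every alternative run for them. CHAC1 was called without DLD-1 untreated replicate 2 and lost its call without each other single library, and BHLHE40, AVIL, CXCL5, NDUFA1, ZDHHC12-DT, KALRN and RAMP1 lost theirs without at least 1 library.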

How the results depend on the processing

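For alpelisib against untreated cells, the alternatives that kept all 6 libraries (pseudocount, scaling, filters, mitochondrial genes, block, trend and libraries in the fit) called 4856 to 6519 genes, against 5845. Median-of-ratios scaling gave 2610 higher and 2971 lower, and shared 79.1% of the calls. Leaving out 1 library gave 4215 to 5371 calls, 1194 to 1427 higher and 3021 to 3944 lower. The replicate block gave 4950 calls, 1417 higher and 3533 lower, and the check made cannot tell whether the numbers pair the libraries. For the difference between DLD-1 and LoVo-labelled effects, the block gave 39 calls, 10.0 higher and 29 lower, median-of-ratios scaling gave 266 with 117 higher, and leaving out mitochondrial genes gave 82 higher. Leaving out 1 of the 12 libraries gave 93 to 163 calls, 27 to 56 higher and 60.0 to 107 lower. The cause was not tested. Over all alternatives, 4952 of 5141 values of named genes kept direction and side of the threshold, 150 lost the call, 39 gained one and 0 reversed. For the difference 371 of 460 kept it and 89 lost it. The filter over all 18 libraries was chosen after seeing the data. TPM without depth sets no counting error, and 426 tested genes were at 0 in at least 1 of the 6 libraries.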
